A study of Mus musculus with 59 samples.

Results

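The genes described here are the subunits of the 26S proteasome. They are all the rows of the deposited table whose symbol is Psma, Psmb, Psmc or Psmd followed by a number, which gave 39 of 47643 gene symbols. They divide into 7 alpha and 7 beta subunits of the core particle, 6 ATPases and 14 non-ATPase subunits of the regulatory particle, 3 immunoproteasome subunits (Psmb8, Psmb9, Psmb10) and 2 tissue-restricted subunits (Psma8, Psmb11). RNA-seq had been done on diaphragm, tibialis anterior and soleus muscle of female NCI Ath/nude mice aged 4 months, and 59 libraries fell into 8 groups. Every mouse carried a human patient-derived melanoma under the skin, and there was no tumor-free group. Diaphragm libraries came from mice with a non-cachectic melanoma and mock injection (9), a non-cachectic melanoma and rFibcd1 (10), a cachectic melanoma and mock injection (10) and a cachectic melanoma and rFibcd1 (10). For the cachectic melanoma the study's diaphragm heatmap lists 7 mock and 6 rFibcd1 diaphragms, fewer than the libraries here. The reason for the difference is not stated. rFibcd1 is recombinant Fibcd1, a protein secreted by muscle that the study examined for its effect on myofiber size, injected into the peritoneal cavity, and mock mice received the vehicle. Tibialis anterior and soleus libraries (5 per group) came from mice with a cachectic or a non-cachectic melanoma, with no rFibcd1. Each kind of melanoma was 1 xenograft, so that cachexia and the identity of the tumor cannot be told apart. Nude mice lack a thymus and hold few mature T cells.

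The proteasome is the protease that degrades proteins marked with ubiquitin. Its barrel-shaped core is built of outer rings of alpha subunits, which gate the entrance, and inner rings of beta subunits, of which Psmb5, Psmb6 and Psmb7 carry the proteolytic sites. The regulatory particle caps the barrel: its ring of ATPases (Psmc1 to Psmc6) unfolds substrates, and its non-ATPase subunits bind ubiquitin chains or remove them. Interferon induces Psmb8, Psmb9 and Psmb10, which replace Psmb5, Psmb6 and Psmb7, in that order, in the immunoproteasome, the form that immune cells use to make peptides for antigen presentation. In wasting muscle, proteasome genes belong to the classical set of genes whose mRNA rises with atrophy. The transcription factor Nfe2l1 induces them through antioxidant response elements when proteasome capacity falls short. Psmd5, Psmd9 and Psmd10 are named as non-ATPase subunits but act as chaperones that assemble the ATPase ring and are not in the finished particle.

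The promoters of 6 genes are shown because the results below turn on them: Psmd8, Psmd4 and Psma7 had among the largest differences between cachectic and non-cachectic mice, Psma1 had among the smallest, and Psmb5 and Psmb6 carry proteolytic sites. Each run is the 150 bases before the RefSeq start of the gene (mouse genome GRCm38), read 5′ to 3′ on the gene's own strand, with matches to 4 searched motifs in capitals. Psmd8 lies at chr7:29180674-29180823 (minus strand), Psmd4 at chr3:95042615-95042764 (minus), Psma7 at chr2:180042465-180042614 (minus), Psma1 at chr7:114276117-114276266 (minus), Psmb5 at chr14:54617996-54618145 (minus) and Psmb6 at chr11:70525207-70525356 (plus).
Psmd8: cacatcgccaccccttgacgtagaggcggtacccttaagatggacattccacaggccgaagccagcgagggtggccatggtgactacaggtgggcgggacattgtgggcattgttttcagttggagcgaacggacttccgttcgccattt
Psmd4: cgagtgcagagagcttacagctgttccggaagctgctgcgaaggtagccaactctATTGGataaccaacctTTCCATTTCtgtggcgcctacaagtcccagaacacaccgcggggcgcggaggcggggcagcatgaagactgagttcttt
Psma7: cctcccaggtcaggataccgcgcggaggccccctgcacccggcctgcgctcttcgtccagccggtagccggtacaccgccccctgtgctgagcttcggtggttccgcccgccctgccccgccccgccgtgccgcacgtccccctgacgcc
Psma1: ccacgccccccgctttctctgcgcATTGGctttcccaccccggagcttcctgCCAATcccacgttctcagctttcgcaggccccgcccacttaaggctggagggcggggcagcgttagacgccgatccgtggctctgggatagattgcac
Psmb5: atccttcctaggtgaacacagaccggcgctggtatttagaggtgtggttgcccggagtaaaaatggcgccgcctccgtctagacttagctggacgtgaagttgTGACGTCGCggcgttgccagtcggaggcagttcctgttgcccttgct
Psmb6: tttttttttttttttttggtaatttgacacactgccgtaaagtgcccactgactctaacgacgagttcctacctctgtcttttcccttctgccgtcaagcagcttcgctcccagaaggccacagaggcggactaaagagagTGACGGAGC
The capitals in Psmb5 and Psmb6 mark the core of the antioxidant response element, those in Psma1 a CCAAT box on each strand, and those in Psmd4 a CCAAT box and an interferon-type element, both on the opposite strand. The share of G and C ran from 48% in Psmb6 to 76% in Psma7.

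The motifs were searched on both strands in the 300 bases from 250 before to 50 after the start, a window held for 32 of the 39 genes. The antioxidant response element core (TGACNNNGC) was in 5 of them (Psmb5, Psmb6, Psmc6, Psmd9 and Psmd12), which is 15.6% against 14% of all 27025 genes with a window. The CCAAT box was in 13 (40.6% against 41.1%). The interferon-type element (GAAANNGAA) was in 5 (15.6% against 9.76%), namely Psmb3, Psmb4, Psmc2, Psmd4 and Psmd9. None of these is an immunoproteasome subunit. A FoxO element (TGTTTAC) was in 0, against 4.05% of all genes. Psma7 held a CCAAT box 196 to 192 bases before the start, outside the run shown. These are matches of letters, and no measurement of factor binding was used here.

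Values are TPM, transcript abundances that are divided by gene length and add up to 1 fixed sum per library, so that levels can be compared between genes. Because of this scaling the sequencing depth behind a value is unknown. Differences are log2 fold changes of TPM + 1 (which understates the change of low genes) from limma, with adjustment (Benjamini-Hochberg) over all genes tested, and a gene was called at an adjusted p below 0.05. Of the 39 genes, 37 passed the filter on low values. Psma8, the alpha subunit of the testis, did not exceed 0.509 TPM in any library, and Psmb11, the beta subunit of the thymic epithelium, did not exceed 0.0345 TPM. The other 37 were measured in every group. Psmb1 was the most abundant, with a mean over the groups of 246 TPM (97.2nd percentile of genes at 1 TPM or more), then Psma6 (178 TPM), Psma2 (174 TPM) and Psmd7 (173 TPM). The assembly chaperones Psmd10 (11.9 TPM), Psmd5 (7.02 TPM) and Psmd9 (5.72 TPM) were far below the subunits of the finished particle, and Psmb9 (7.34 TPM), Psmb8 (16.6 TPM) and Psmb10 (34.5 TPM) were also low.

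Several properties of the libraries moved with the groups. The share of TPM taken by mitochondrially encoded genes was lower with the cachectic melanoma in each muscle: group means were 38.1% against 47.5% in mock diaphragm, 37.6% against 43.9% in rFibcd1 diaphragm, 38.8% against 48.5% in tibialis anterior and 30.5% against 41.1% in soleus. The median log2 difference of all genes tested was above 0, at 0.20, 0.08, 0.41 and 0.09 in that order. With the mitochondrially encoded genes removed and the rest scaled again it was 0.0041, −0.04, 0.22 and −0.12. Under a median-ratio scaling, which brings the median gene close to no change, it was 0.0086, 0.02, −0.01 and 0.0070. The level of the pseudogene Pcna-ps2 also split the libraries: it was at 1 TPM or more in 3 of 9, 6 of 10, 9 of 10 and 8 of 10 diaphragm libraries (non-cachectic mock, non-cachectic rFibcd1, cachectic mock, cachectic rFibcd1). It was so in all cachectic and no non-cachectic libraries of tibialis anterior and soleus, where this split and the melanoma cannot be told apart. Muscle fiber markers were the most abundant of the marker genes examined in all 8 groups. With the cachectic melanoma 3 of 6 fiber markers were called higher in mock diaphragm (median log2 difference 0.32), 0 in rFibcd1 diaphragm (0.04), 1 higher and 2 lower in tibialis anterior (−0.03) and 2 higher in soleus (0.28). Of 4 endothelial markers, 2 were called higher in mock diaphragm, 1 lower in rFibcd1 diaphragm, 2 higher and 1 lower in tibialis anterior, and 1 higher and 1 lower in soleus. The part of these cells in the results was not tested. In bulk muscle, fewer cells of a type and less RNA per cell cannot be told apart.

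Most proteasome subunits were higher in muscles of mice with the cachectic melanoma in all 4 comparisons on the scale as deposited, whereas after median-ratio scaling most were called higher in soleus alone and 1 subunit was called lower in each of mock diaphragm and tibialis anterior. On the scale as deposited no subunit was called lower. In mock diaphragm 24 of 37 were called higher, against 30.9% of all genes called higher and 2.67% called lower. The median log2 difference of the members was 0.31, with a range from −0.11 (Psmb9) to 0.62 (Psmd8). In diaphragm of rFibcd1-treated mice 27 were called higher, against 7.14% higher and 1.97% lower, with a median of 0.35. Fewer were called there when only the 2 groups compared were fitted. In tibialis anterior 33 were called higher, against 56.4% and 3.78%, with a median of 0.71. In soleus 31 were called higher, against 17.5% and 7.54%, with a median of 0.48. On this scale the share of members called higher was above the background in each comparison. After median-ratio scaling it was below the background in mock diaphragm (0 of 37, against 7.39% of all genes higher).

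**Figure D1:**
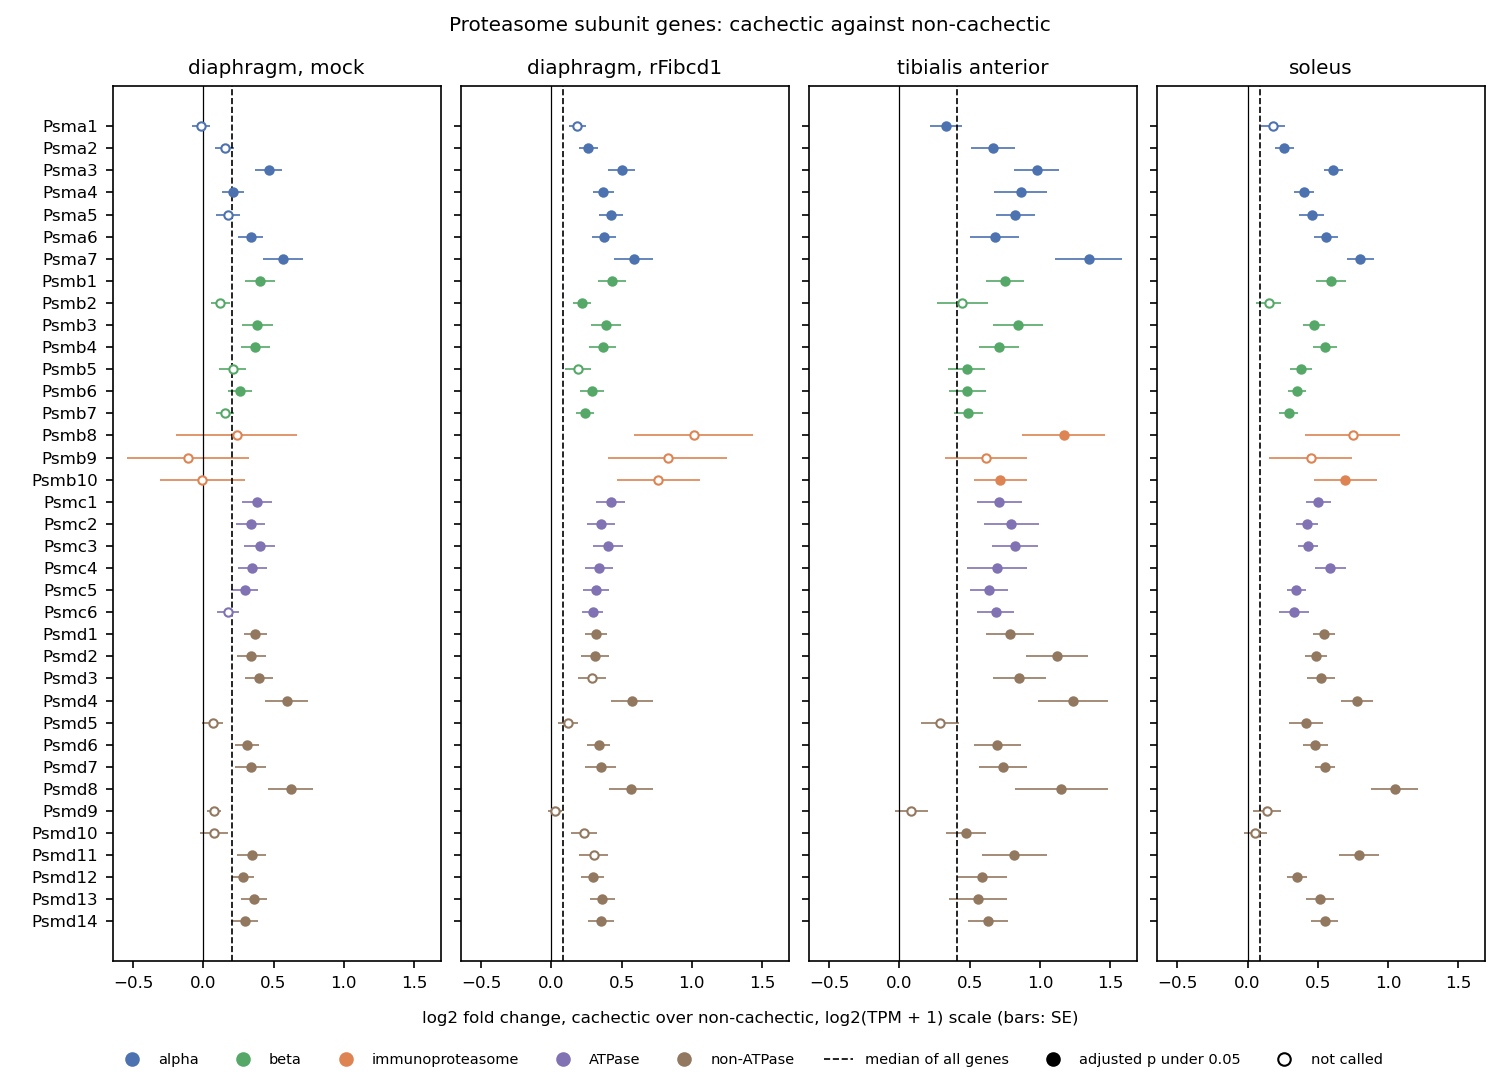
Log2 fold change (cachectic over non-cachectic, log2(TPM + 1) scale as deposited) of the 37 measured subunits in 4 panels, mock diaphragm, rFibcd1 diaphragm, tibialis anterior and soleus. Filled points have an adjusted p below 0.05, bars are standard errors and the dashed line is the median of all genes tested. Most subunits lie above that line (26, 36, 34 and 36 of 37), and Psmb8, Psmb9 and Psmb10 have the widest bars in the diaphragm. After median-ratio scaling 24, 36, 31 and 36 lie above the median of all genes.

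How many subunits passed the test depended on the scale. After median-ratio scaling, 0 were called higher and 1 lower in mock diaphragm (Psma1, log2 difference −0.24, adjusted p = 0.0188), 4 higher in rFibcd1 diaphragm (Psma3, Psma5, Psma7 and Psmd14), 14 higher and 1 lower in tibialis anterior (Psmd9, −0.34, adjusted p = 0.00323), and 27 higher in soleus. On that scale 7.39%, 4.23%, 18.4% and 15.2% of all genes were called higher and 8.41%, 4.74%, 21.9% and 12.8% lower, in the same order. With the mitochondrially encoded genes removed and the rest scaled again, the numbers were 3 higher and 1 lower, then 9, 30 and 20 higher, against 6.75%, 3%, 39.5% and 7.65% of all genes higher and 7.28%, 6.23%, 8.85% and 23.4% lower. Among all genes called, the share called higher was 92% in mock diaphragm as deposited, 46.8% after median-ratio scaling and 48.1% without the mitochondrially encoded genes. It was 78.3%, 47.2% and 32.6% in rFibcd1 diaphragm, 93.7%, 45.6% and 81.7% in tibialis anterior, and 70%, 54.3% and 24.6% in soleus. Set against the median of all genes, the median subunit was 0.11 higher (log2) in mock diaphragm, 0.27 in rFibcd1 diaphragm, 0.30 in tibialis anterior and 0.39 in soleus as deposited. After median-ratio scaling these distances were 0.07, 0.26, 0.23 and 0.38. Among genes passing the filter on low values, this distance was therefore largest in soleus and smallest in mock diaphragm on both scales. The order was not tested.

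**Figure D2:**
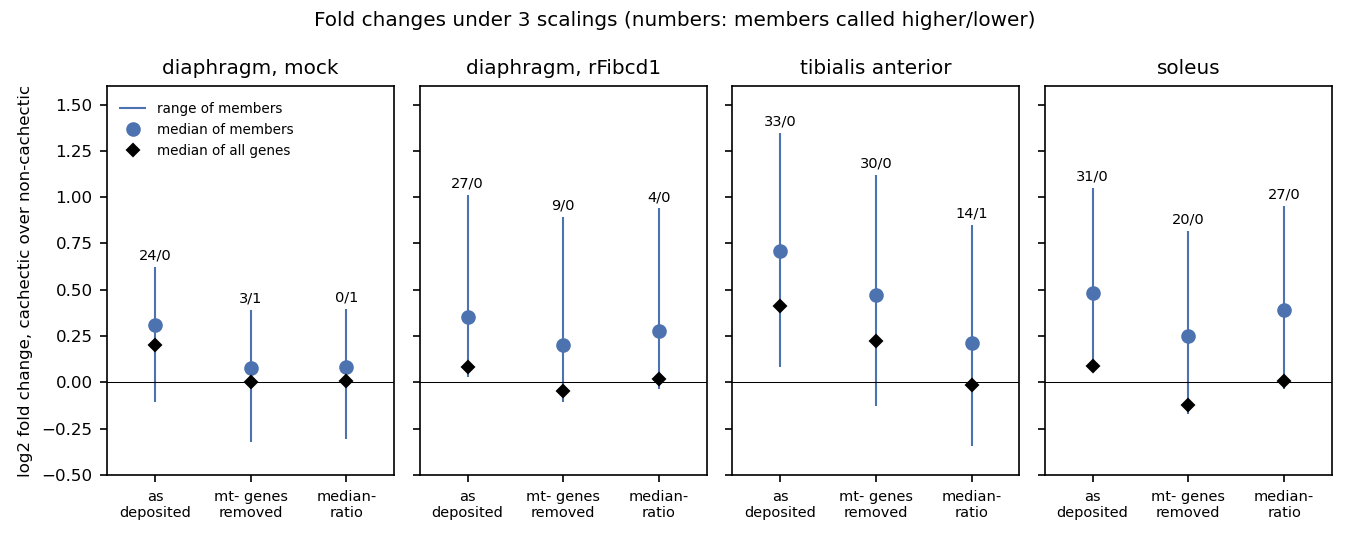
Log2 fold change (cachectic over non-cachectic) of the 37 subunits in the 4 comparisons on 3 scales. These are values as deposited, with mitochondrially encoded genes removed, and after median-ratio scaling. Lines span the range of the subunits, circles are their median and diamonds are the median of all genes. The printed numbers are subunits called higher and lower. The soleus keeps 20 or more calls on each scale, and mock diaphragm goes from 24 higher to 3 and then 0.

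In mock diaphragm, the number of subunits called also moved with the Pcna-ps2 split. With it as a term in the model 13 were called higher in mock diaphragm (median 0.27, against 12.3% of all genes) and 26 in rFibcd1 diaphragm (median 0.32, against 6.58%). Within the libraries at 1 TPM or more of Pcna-ps2, 1 was called in mock diaphragm (Psma3, 0.44, adjusted p = 0.0457, 9 libraries against 3), where 5% of all genes were called higher. In rFibcd1 diaphragm (8 against 6) 0 of all 14159 genes tested were called and therefore 0 subunits, of which 25 had an unadjusted p below 0.05. The medians there were 0.28 and 0.25. Dunn's rank test, the kind of test the authors used, called 25 subunits higher in the diaphragm of mock mice (38% of all genes), 35 in tibialis anterior (62.2%) and 28 in soleus (14.6%). In rFibcd1 diaphragm it called 0 of all genes and so 0 subunits (32 at an unadjusted p below 0.05). For the unadjusted counts of 25 and 32 no share of all genes is given here. A total of 22 subunits were called higher with limma in all 4 comparisons, against 4.86% of the genes tested in each, 6 in 3 of them and 2 (Psmb9 and Psmd9) in none. This holds for values as deposited: after median-ratio scaling 0 subunits were called higher in all 4 (1.67% of genes), and 3 without the mitochondrially encoded genes (1.68%).

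Among the alpha subunits, Psma7 had the largest difference in all 4 comparisons and Psma1 the smallest. Of 7 alpha subunits, 4 were called higher in mock diaphragm (median log2 difference 0.21), 6 in rFibcd1 diaphragm (0.38), 7 in tibialis anterior (0.83) and 6 in soleus (0.46). Psma7 (chr2:180036374-180042433, minus strand), whose promoter was the richest in G and C of those shown, ranged in diaphragm from 43.3 to 61.3 TPM (median 51.6) in non-cachectic mock libraries and from 53.6 to 125.5 TPM (median 72.6) in cachectic mock libraries. In rFibcd1 libraries it ranged from 43.8 to 62.4 TPM (median 55.9) with the non-cachectic and from 53.7 to 139.7 TPM (median 72.1) with the cachectic melanoma. The diaphragm groups overlapped at their edges, and the cachectic groups were spread over a wider range. In tibialis anterior the non-cachectic libraries were at 37.6, 38.0, 38.5, 40.0 and 44.9 TPM, and the cachectic libraries at 80.1, 82.9, 84.2, 92.9 and 218 TPM. In soleus the non-cachectic libraries were at 51.7, 53.2, 53.3, 53.4 and 54.6 TPM and the cachectic at 78.1, 86.7, 89.4, 107 and 111 TPM. The limb groups did not overlap in either muscle. The fold changes of Psma7 were 1.48 in mock diaphragm (log2 0.56, SE 0.14, adjusted p = 0.00283), 1.502 in rFibcd1 diaphragm (0.59, SE 0.14, adjusted p = 0.0068), 2.55 in tibialis anterior (1.35, SE 0.24, adjusted p = 0.00167) and 1.75 in soleus (0.80, SE 0.10, adjusted p = 0.000311). Psma7 was also called higher after median-ratio scaling in rFibcd1 diaphragm (0.51), tibialis anterior (0.85) and soleus (0.71), and was 0.34 in mock diaphragm (adjusted p = 0.168). Psma3, another subunit of this ring, was called in all 4 comparisons, with log2 differences of 0.46, 0.50, 0.98 and 0.61.

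Psma1 (chr7:114264606-114276118, minus strand), in the same ring, moved least. Its diaphragm means were 64.6 ± 3.98 TPM (SD, n = 9) in non-cachectic mock, 65.0 ± 5.09 in non-cachectic rFibcd1, 64.1 ± 6.49 in cachectic mock and 74.3 ± 9.04 in cachectic rFibcd1 libraries (n = 10 each). The log2 differences were −0.02 (adjusted p = 0.867) in mock and 0.18 (adjusted p = 0.0551) in rFibcd1 diaphragm. In tibialis anterior, Psma1 was at 40.5, 42.9, 45.0, 46.0 and 46.2 TPM in non-cachectic and 48.5, 50.1, 53.6, 58.4 and 70.9 TPM in cachectic libraries, without overlap (log2 0.33, adjusted p = 0.0274, kept in 7 of 10 fits that left out 1 library). In soleus it was at 64.4, 65.1, 66.3, 66.6 and 71.0 TPM against 70.0, 70.5, 70.6, 77.2 and 91.98 TPM, with overlap (0.18, adjusted p = 0.146). Relative to the median of all genes, Psma1 was thus below it in mock diaphragm and tibialis anterior and above it in the other comparisons. After median-ratio scaling the values were −0.24, 0.11, −0.16 and 0.09, of which only mock diaphragm passed the test.

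Of 7 constitutive beta subunits, 4 were called higher in mock diaphragm (median 0.26) and 6 in each of rFibcd1 diaphragm (0.29), tibialis anterior (0.49) and soleus (0.38). Psmb1, a structural subunit of the inner ring, had the largest difference in both diaphragm comparisons (0.40 and 0.43) and in soleus (0.59), and Psmb3, another structural subunit, in tibialis anterior (0.84). Psmb2, also without a proteolytic site of its own, had the smallest difference in mock diaphragm (0.12, adjusted p = 0.147), tibialis anterior (0.45, adjusted p = 0.0504) and soleus (0.15, adjusted p = 0.225). It was called in rFibcd1 diaphragm (0.22, adjusted p = 0.0254). The smallest in rFibcd1 diaphragm was Psmb5 (0.19, adjusted p = 0.187).

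The proteolytic subunits were at or below the median of their class in each comparison. Psmb5, the chymotrypsin-like subunit (chr14:54614119-54618022, minus strand), with the antioxidant response element core shown above, averaged 98.98 and 99.9 TPM in mock and rFibcd1 non-cachectic diaphragm and 115.3 and 117 TPM in the cachectic groups. Its range was 91.2 to 123 against 89.0 to 141 TPM in mock libraries, so the groups overlapped almost completely (log2 0.21, adjusted p = 0.0825). In tibialis anterior it ran from 94.7 to 105 against 115.8 to 192 TPM (0.48, adjusted p = 0.0108), and in soleus from 111 to 125 against 137 to 172 TPM (0.38, adjusted p = 0.00473), both without overlap. Psmb6, the caspase-like subunit, which also held that element, was called in all 4 comparisons with log2 differences of 0.26, 0.29, 0.48 and 0.36. Psmb7, the trypsin-like subunit, was called in all but mock diaphragm, with 0.16 (adjusted p = 0.0603), 0.24, 0.49 and 0.29. After median-ratio scaling the tibialis anterior values were −0.02 for Psmb5, −0.02 for Psmb6 and −0.0078 for Psmb7, so the change of these genes in that muscle was about that of the median gene. In soleus the scaled values were 0.29 for Psmb5 (adjusted p = 0.039), 0.26 for Psmb6 (adjusted p = 0.0203) and 0.20 for Psmb7 (adjusted p = 0.127).

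The ATPases had the narrowest range of the 4 large classes in each comparison. Of 6, 5 were called higher in mock diaphragm (median 0.34) and all 6 in rFibcd1 diaphragm (0.35), tibialis anterior (0.70) and soleus (0.43). The range among them was 0.17 (Psmc6, adjusted p = 0.0704) to 0.40 (Psmc3) in mock diaphragm, 0.29 (Psmc6) to 0.42 (Psmc1) in rFibcd1 diaphragm, 0.64 (Psmc5) to 0.82 (Psmc3) in tibialis anterior and 0.33 (Psmc6) to 0.59 (Psmc4) in soleus. Psmc6 in mock diaphragm was the only one not called, and its call in soleus held in 3 of 10 fits that each left out 1 library. After median-ratio scaling 2 (Psmc2 and Psmc3) were called higher in tibialis anterior, 5 in soleus and none in the diaphragm.

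The non-ATPase subunits held both the largest and some of the smallest differences. Of 14, 11 were called higher in mock diaphragm (median 0.34), 9 in rFibcd1 diaphragm (0.31), 12 in tibialis anterior (0.72) and 12 in soleus (0.52). Psmd8, a lid subunit (chr7:29174188-29180701, minus strand), had the largest difference of all 37 in mock diaphragm and in soleus. In mock diaphragm it ranged from 39.4 to 54.2 TPM (median 45.1) with the non-cachectic and from 39.4 to 136 TPM (median 72.3) with the cachectic melanoma. In rFibcd1 diaphragm it ranged from 41.3 to 54.8 TPM (median 49.9) and from 49.7 to 132 TPM (median 65.0). The lowest cachectic libraries lay within the non-cachectic range, and the rest reached far above it. In tibialis anterior Psmd8 was at 43.6, 49.5, 50.4, 53.2 and 57.2 TPM against 76.0, 81.2, 95.0, 96.0 and 336 TPM. In soleus it was at 58.8, 63.1, 65.5, 71.3 and 76.8 TPM against 93.5, 122, 149, 160.3 and 192 TPM. Neither limb muscle showed overlap. The fold changes of Psmd8 were 1.54 (log2 0.62, SE 0.16, adjusted p = 0.00355), 1.48 (0.56, SE 0.16, adjusted p = 0.019), 2.22 (1.15, SE 0.33, adjusted p = 0.0135) and 2.07 (1.05, SE 0.17, adjusted p = 0.00153). After median-ratio scaling Psmd8 was at 0.39, 0.49, 0.66 and 0.95, and only the soleus value passed the test (adjusted p = 0.0019).

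Psmd4, a ubiquitin receptor (chr3:95032694-95042614, minus strand), was the only subunit whose mock diaphragm groups did not overlap, against 4.07% of all genes that were higher without overlap. As 1 of 37 subunits, this lay below the share of all genes. Psmd4 ranged from 58.2 to 70.1 TPM (median 64.5) with the non-cachectic and from 76.3 to 162 TPM (median 90.6) with the cachectic melanoma. In rFibcd1 diaphragm the ranges were 58.1 to 70.2 TPM (median 63.6) and 62.5 to 190.1 TPM (median 84.2), with overlap. In tibialis anterior Psmd4 was at 59.8, 61.4, 62.9, 63.3 and 71.2 TPM against 114, 115, 123, 147 and 334 TPM. In soleus it was at 91.6, 102, 103, 107 and 108 TPM against 149.8, 149.96, 167, 207 and 219 TPM. The fold changes were 1.51 (log2 0.59, SE 0.15, adjusted p = 0.00364), 1.49 (0.57, SE 0.15, adjusted p = 0.0127), 2.36 (1.24, SE 0.25, adjusted p = 0.00328) and 1.72 (0.78, SE 0.12, adjusted p = 0.00105). After median-ratio scaling neither diaphragm value of Psmd4 was called. As deposited, Psmd4 and Psma7 were among the 5 largest differences in all 4 comparisons, and Psma3 and Psmd8 among the 10 largest.

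**Figure D3:**
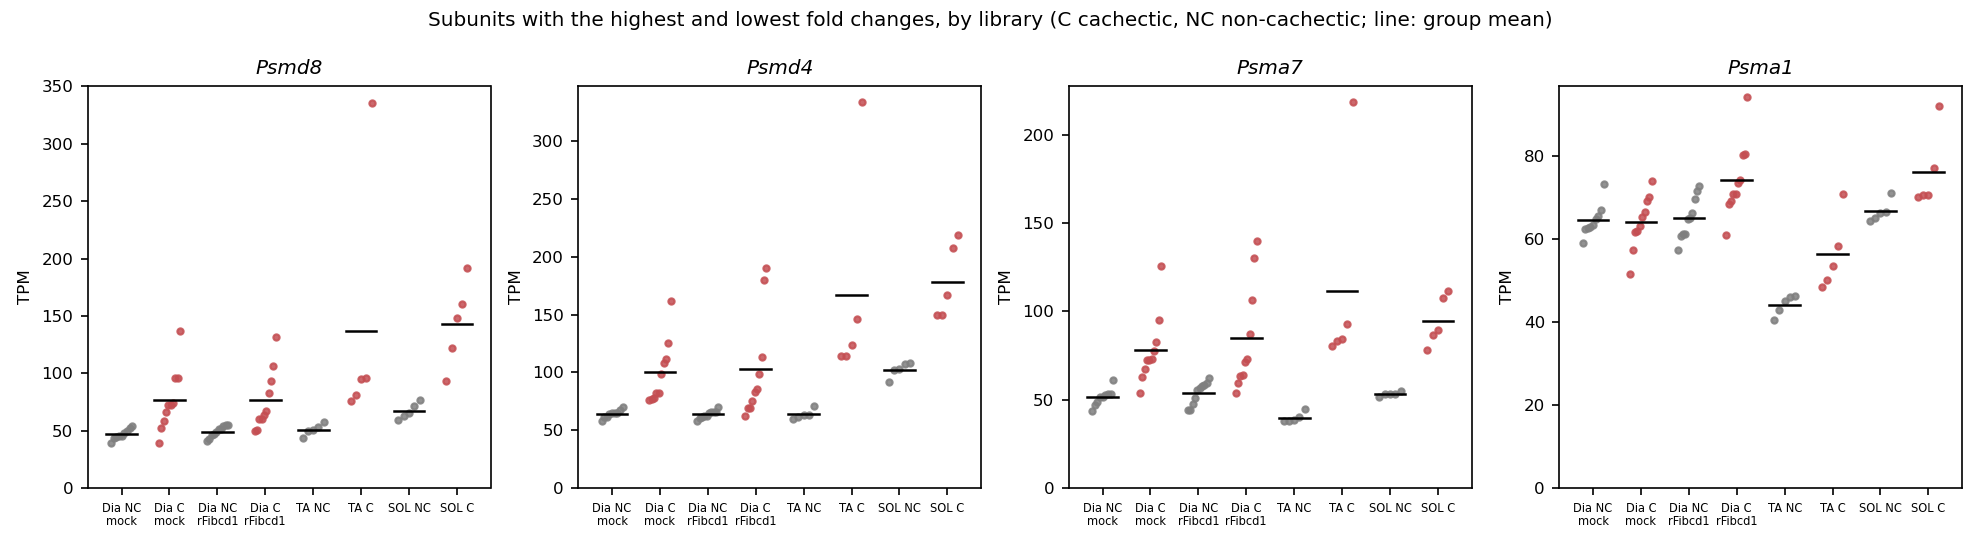
TPM of Psmd8, Psmd4, Psma7 and Psma1 in each library of the 8 groups (y axes from 0), grey for non-cachectic and red for cachectic, with a line at the group mean. Cachectic libraries of the first 3 genes reach 125.5 TPM or more in the diaphragm, where non-cachectic libraries stay at 70.2 TPM or below. Psma1 has overlapping groups in diaphragm and soleus but not in tibialis anterior, and 1 cachectic tibialis anterior library lies far above the other 4 in the first 3 genes.

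Of the other non-ATPase subunits, Psmd14, the deubiquitinase of the lid, was called in all 4 comparisons (0.29, 0.35, 0.63 and 0.55). Psmd11, a lid subunit, was called in mock diaphragm (0.34), tibialis anterior (0.82) and soleus (0.80), and was 0.30 in rFibcd1 diaphragm (adjusted p = 0.0534). Psmd2, a scaffold of the base, was called in all 4 (in rFibcd1 diaphragm in 18 of 39 fits that left out 1 library) and had its largest difference in tibialis anterior (1.12, SE 0.22, adjusted p = 0.00298). Psmd6, a lid subunit, was the only one whose rFibcd1 diaphragm groups did not overlap (52.9 to 64.03 TPM against 64.04 to 98.8 TPM), against 0.0521% of all genes. The limb groups did not overlap for 34 of 37 subunits in tibialis anterior, against 49.1% of all genes, and for 28 in soleus, against 14.6%.

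Of the 3 assembly chaperones among these genes, none was called in more than 1 comparison. Psmd9 (chr5:123169413-123250131, plus strand) was not called in any comparison, with log2 differences of 0.08, 0.03, 0.08 and 0.14. Its tibialis anterior values were 4.97, 5.23, 5.26, 5.39 and 5.55 TPM in non-cachectic and 4.70, 4.90, 5.70, 6.17 and 7.07 TPM in cachectic libraries, with the lowest of all in the cachectic group. After median-ratio scaling it was −0.12, −0.04, −0.34 and 0.06, and the tibialis anterior value passed the test. Exons of Psmd9 overlap those of Gm26745 on the opposite strand over 25.5% of their length, and how strand was counted is not given in the sources used here, so reads of both may be mixed. Psmd10 was called only in tibialis anterior (0.47, adjusted p = 0.017), with 0.08, 0.23 and 0.06 elsewhere. Psmd5 was called only in soleus (0.42, adjusted p = 0.0262, kept in 4 of 10 fits that left out 1 library), with 0.07, 0.12 and 0.29 elsewhere. Psmd9 and Psmd10, with Psma1, Psmb2 and Psmb7, were among the 10 smallest differences in all 4 comparisons.

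Summed over the alpha, beta, ATPase and non-ATPase classes, mean TPM was higher in cachectic than in non-cachectic libraries of each muscle as deposited. The sum of the 3 immunoproteasome genes was 62.5 ± 31 TPM (SD, n = 9) in non-cachectic and 60.8 ± 16.8 TPM (n = 10) in cachectic mock diaphragm. It was 67.2 ± 43.4 against 138 ± 130 TPM in rFibcd1 diaphragm (n = 10 each), and 17.4 ± 5.26 against 33.7 ± 12 TPM in tibialis anterior and 32.4 ± 11.1 against 55.3 ± 21.1 TPM in soleus (n = 5 each). Alpha subunits together held 602 ± 35.2 TPM (SD, n = 9) in non-cachectic and 727 ± 98.6 TPM (n = 10) in cachectic mock diaphragm, and 520.1 ± 22.8 against 936 ± 315 TPM in tibialis anterior and 716 ± 17.9 against 983 ± 62.3 TPM in soleus (n = 5 each). Non-ATPase subunits held 698 ± 28 against 927 ± 196 TPM in mock diaphragm, 718 ± 28.9 against 1404 ± 628 TPM in tibialis anterior and 936 ± 36.2 against 1420.3 ± 141 TPM in soleus. All 39 genes together made up 2661 ± 138 TPM in non-cachectic and 3337 ± 505 TPM in cachectic mock diaphragm. They made up 2710.1 ± 178 against 3588 ± 702 TPM in rFibcd1 diaphragm, 2507 ± 84.7 against 4409 ± 1494 TPM in tibialis anterior and 3324 ± 128 against 4696 ± 341 TPM in soleus.

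**Figure D4:**
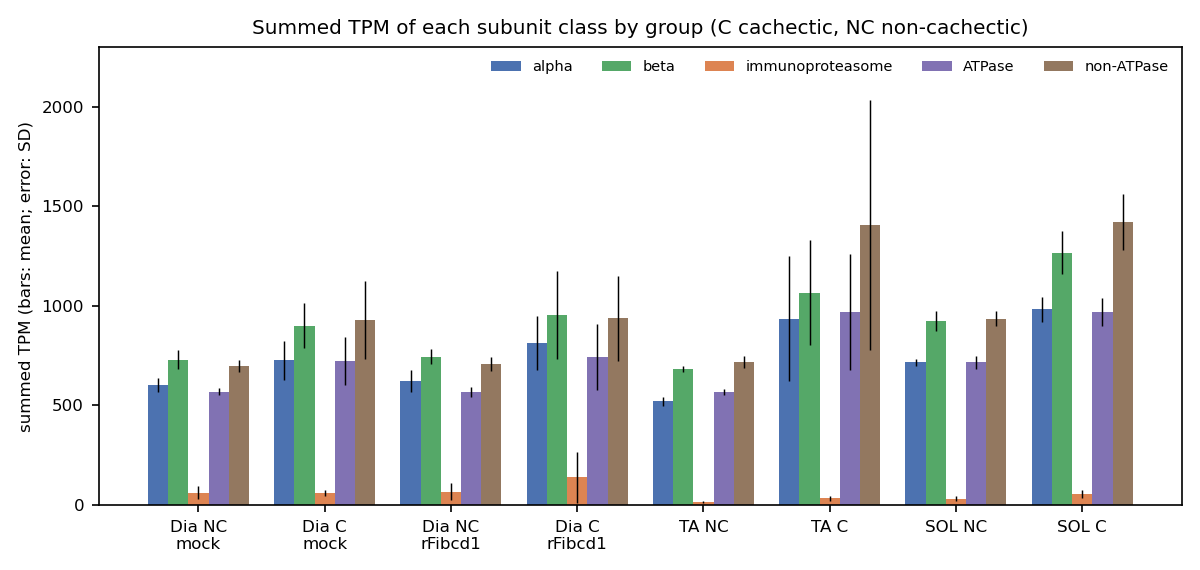
Summed TPM of each subunit class (bars, mean; error bars, SD; n = 9 or 10 in diaphragm, 5 in limb muscles) in the 8 groups, on the scale as deposited. In the 4 large classes, cachectic bars are higher than non-cachectic bars of the same muscle and their error bars are longer. The longest error bar is that of the non-ATPase class in tibialis anterior (628 TPM). For the immunoproteasome in mock diaphragm the error bar is shorter with the cachectic melanoma (16.8 against 31 TPM).

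The spread between libraries was also larger with the cachectic melanoma. The median coefficient of variation of the 34 constitutive subunits was 6.08% in non-cachectic and 16.9% in cachectic mock diaphragm, 7.05% and 22% in rFibcd1 diaphragm, 4.84% and 32.6% in tibialis anterior, and 4.7% and 10.7% in soleus. The 32.6% includes 1 library far above the other 4 for many subunits, and the value without that library is not given here. In tibialis anterior 1 cachectic library (column number 8) was the highest for all 34. It held 336 TPM of Psmd8 (the other 4 had 76.0 to 96.0), 334 TPM of Psmd4 (114 to 147), 218 TPM of Psma7 (80.1 to 92.9) and 509 TPM of Psmd2 (194 to 244). Its immunoproteasome genes did not stand out, at 8.40 TPM for Psmb8, 2.15 TPM for Psmb9 and 16.2 TPM for Psmb10. Its mitochondrially encoded share was 25.1% (others 38.9% to 45.6%), and the summed TPM of its macrophage markers was 61.6 (9.70 to 33.9) and of its neutrophil markers 50.2 (6.71 to 19.2). The part of these in the result was not tested. Without that library 35 subunits were called and the median log2 difference was 0.56 (all genes 0.29), with 0.76 for Psmd8, 0.95 for Psmd4, 1.08 for Psma7 and 0.87 for Psmd2. The share of all genes called in that fit is not given here, so the 35 is not set against a background. The values for Psmd8 and Psmd2 fell but stayed above that of the median gene.

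The immunoproteasome subunits had wide ranges between libraries in the diaphragm. In mock diaphragm none of the 3 was called, with log2 differences of 0.24 for Psmb8 (SE 0.43, adjusted p = 0.682), −0.11 for Psmb9 (SE 0.43, adjusted p = 0.861) and −0.01 for Psmb10 (SE 0.30, adjusted p = 0.985). With the Pcna-ps2 split as a term these were −0.56, −0.83 and −0.43 (unadjusted p = 0.145, 0.0445 and 0.161; adjusted p = 0.348, 0.163 and 0.37). In rFibcd1 diaphragm none was called either, with larger values of 1.01 (SE 0.42, adjusted p = 0.122), 0.83 (SE 0.42, adjusted p = 0.217) and 0.76 (SE 0.30, adjusted p = 0.0969). In tibialis anterior Psmb8 (1.17, adjusted p = 0.0082) and Psmb10 (0.72, adjusted p = 0.0092) were called higher, and after median-ratio scaling neither was. In soleus Psmb10 (0.70, adjusted p = 0.0418) was called higher as deposited, in 3 of 10 fits that each left out 1 library, and not after median-ratio scaling (0.61, adjusted p = 0.103).

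Psmb8 (chr17:34197721-34201454, plus strand), which replaces Psmb5, ranged from 5.64 to 30.6 TPM (median 12.1) in non-cachectic mock diaphragm and from 8.91 to 31.1 TPM (median 16.8) in cachectic mock diaphragm. In rFibcd1 diaphragm it ranged from 5.44 to 46.8 TPM (median 14.9) and from 4.51 to 142 TPM (median 33.3). The cachectic rFibcd1 group held both the lowest and the highest library of the 4. In tibialis anterior Psmb8 was at 2.36, 2.89, 2.90, 4.37 and 8.25 TPM against 6.54, 7.47, 8.40, 12.6 and 16.8 TPM, and in soleus at 4.71, 6.27, 7.06, 8.23 and 14.7 TPM against 7.23, 8.78, 14.67, 17.5 and 27.0 TPM. The groups overlapped in both limb muscles. Psmb9 (chr17:34181987-34187764, minus strand), which replaces Psmb6, ranged from 2.83 to 18.1 TPM (median 5.45) against 3.77 to 13.3 TPM (median 5.82) in mock diaphragm, and from 2.32 to 24.1 TPM (median 7.34) against 2.00 to 72.1 TPM (median 13.6) in rFibcd1 diaphragm. In tibialis anterior it was at 1.19, 1.43, 1.4997, 1.62 and 4.01 TPM against 1.96, 2.15, 2.44, 5.69 and 5.90 TPM (log2 0.62, adjusted p = 0.0819). Psmb10 (chr8:105935735-105938444, minus strand), which replaces Psmb7, ranged from 19.6 to 68.1 TPM (median 29.8) against 21.8 to 47.1 TPM (median 38.7) in mock diaphragm, and from 20.9 to 89.0 TPM (median 33.1) against 19.8 to 270 TPM (median 53.1) in rFibcd1 diaphragm. In tibialis anterior Psmb10 was at 9.98, 10.0, 10.5, 11.7 and 14.1 TPM against 14.6, 15.3, 16.2, 23.4 and 29.1 TPM, the only one of the 3 whose groups did not overlap there.

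**Figure D5:**
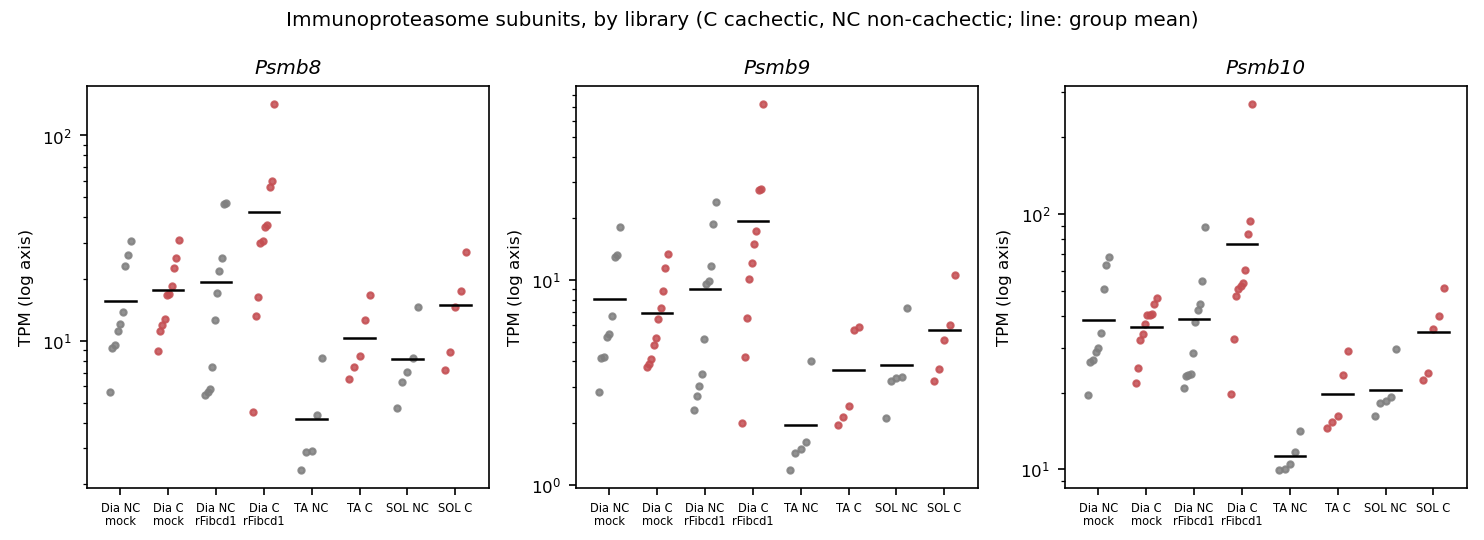
TPM (log axis) of Psmb8, Psmb9 and Psmb10 in each library of the 8 groups, grey for non-cachectic and red for cachectic, with a line at the group mean. The diaphragm groups overlap over most of their range, 1 cachectic rFibcd1 library lies highest in each gene (142, 72.1 and 270 TPM), and tibialis anterior has the lowest values.

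That cachectic rFibcd1 library (column number 1) was the highest of its group also for the summed TPM of interferon-induced and antigen-processing genes (6829, others 501 to 3771), macrophage markers (570, others 41.2 to 229) and T and NK cell markers (74.5, others 0.490 to 33.9). Without it the rFibcd1 diaphragm differences were 0.77 for Psmb8, 0.56 for Psmb9 and 0.52 for Psmb10. The macrophage sum of the groups had medians of 76.0 and 126 in mock diaphragm (ranges 41.2 to 96.5 and 49.4 to 208), 79.3 and 171 in rFibcd1 diaphragm (45.9 to 194 and 41.2 to 570), 6.90 and 29.1 in tibialis anterior (5.45 to 10.9 and 9.70 to 61.6), and 24.4 and 50.3 in soleus (18.7 to 28.1 and 18.0 to 110). Of the macrophage markers tested, 2 of 6 were called higher in mock diaphragm, 0 of 6 in rFibcd1 diaphragm, 5 of 5 in tibialis anterior and 2 of 6 in soleus, where 30.9%, 7.14%, 56.4% and 17.5% of all genes were called higher. Of 6 neutrophil markers only 2, S100a8 and S100a9, passed the filter. Both were called higher in mock diaphragm, tibialis anterior and soleus, and neither in rFibcd1 diaphragm. In rFibcd1 diaphragm both had an unadjusted p below 0.05 (limma), with a median log2 difference of 1.28, against 1.58 in mock diaphragm. Neutrophil sums had medians of 5.66 and 29.3 in mock diaphragm, 9.47 and 32.5 in rFibcd1 diaphragm, 2.72 and 10.1 in tibialis anterior and 3.90 and 15.6 in soleus. T and NK cell sums stayed below 1 TPM in all limb non-cachectic libraries (ranges 0.0738 to 0.327 in tibialis anterior and 0.111 to 0.359 in soleus), where Cd3g and Cd8a were listed at 0 in tibialis anterior and Cd3e in soleus. In cachectic limb muscle these sums ranged from 0.192 to 8.18 and from 0.218 to 7.41. In the diaphragm the T and NK cell sums ranged from 0.887 to 22.8 and from 1.44 to 13.4 in mock mice, and from 0.587 to 24.9 and from 0.490 to 74.5 in rFibcd1 mice. The sums of 6 B and plasma cell markers went the other way in limb muscle, with medians of 91.6 in non-cachectic and 8.00 in cachectic tibialis anterior (ranges 42.6 to 199 and 4.83 to 29.9) and of 6.05 and 4.12 in soleus (4.61 to 8.52 and 1.69 to 4.84). The only one tested in tibialis anterior, Ighm, was called lower (−3.21). In the diaphragm their medians were 59.4 and 81.6 in mock mice (18.6 to 689 and 23.9 to 1288) and 162 and 198 in rFibcd1 mice (41.9 to 3573 and 20.7 to 1458), and 0 of 6 were called. The interferon-induced and antigen-processing genes were called higher for 8 of 11 in tibialis anterior (56.4% of all genes) and for 0 of 11 in the other 3 comparisons, with median log2 differences of 0.06 in mock diaphragm, 0.77 in rFibcd1 diaphragm, 1.05 in tibialis anterior and 0.46 in soleus. At an unadjusted p below 0.05 there were 0, 5, 8 and 3 of them. The part of these other cells in the immunoproteasome values was not tested.

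The ratio of each immunoproteasome subunit to the subunit it replaces did not differ between melanomas beyond the spread of mice in any of 12 tests (two-sided exact permutation tests over libraries, or 100000 resamples in rFibcd1 diaphragm), and the lowest adjusted p was 0.481. Percentages below are medians over libraries and log2 differences are between means of the log2 ratios, so that their directions can differ, as they do for Psmb10 in mock diaphragm and tibialis anterior. Psmb8 had a median of 13.9% of Psmb5 in cachectic and 12.5% in non-cachectic mock diaphragm (log2 difference 0.05, p = 0.875). It was 31.4% against 14.3% in rFibcd1 diaphragm (0.88, p = 0.147), 5.35% against 3.02% in tibialis anterior (0.90, p = 0.103) and 9.22% against 6.34% in soleus (0.44, p = 0.349). Psmb9 as a share of Psmb6 was 5.2% against 5.81% in mock diaphragm (−0.37, p = 0.323) and 12.3% against 7.02% in rFibcd1 diaphragm (0.63, p = 0.321). In tibialis anterior it was 1.95% against 1.53% (0.39, p = 0.468) and in soleus 3.74% against 2.93% (0.20, p = 0.627). Psmb10 was the nearest to its constitutive counterpart, at 41.7% against 38.7% of Psmb7 in mock diaphragm (−0.16, p = 0.466), 58.6% against 37.5% in rFibcd1 diaphragm (0.53, p = 0.16), 11.6% against 12.3% in tibialis anterior (0.27, p = 0.389) and 29.1% against 19.1% in soleus (0.43, p = 0.143). A ratio within a library does not depend on how the libraries are scaled.

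The question whether rFibcd1 changed proteasome mRNA could be asked in the diaphragm alone. In mice with the cachectic melanoma 0 of 37 subunits were called between rFibcd1 and mock, against 0.0447% of all genes, with a median log2 difference of 0.06 (all genes 0.03). At an unadjusted p below 0.05 there were 8, and Dunn's test called 0 as well (3 at an unadjusted p below 0.05). No share of all genes is given here for these unadjusted counts. All 8 were higher with rFibcd1: Psma2 (0.16), Psma4 (0.17), Psmd5 (0.20), Psma1 (0.21), Psmd10 (0.24), Psma5 (0.27), Psmb10 (0.74) and Psmb9 (0.94), with adjusted p from 0.253 to 0.445. The subunits with the largest melanoma differences were close to 0, at 0.01 for Psmd8 (SE 0.16), −0.03 for Psmd4 (SE 0.15) and 0.08 for Psma7 (SE 0.14). Within libraries at 1 TPM or more of Pcna-ps2, 4 were called higher with rFibcd1, namely Psma1 (0.22), Psmd5 (0.27), Psmb8 (1.21) and Psmb9 (1.36), with adjusted p from 0.0316 to 0.0369 (8 libraries against 9), and 4.76% of all genes were called higher in that fit. In mice with the non-cachectic melanoma 0 were called, against 0.417% of all genes, and Psmd5 (0.15) was the only one at an unadjusted p below 0.05. Dunn's test called 0 there too. The difference between the melanoma effects with and without rFibcd1 was called for 0 subunits, against 0.0223% of all genes, with Psma1 (0.20) and Psma5 (0.25) at an unadjusted p below 0.05. For Psmb8, Psmb9 and Psmb10 it was 0.78 (SE 0.60), 0.93 (SE 0.61) and 0.77 (SE 0.42). With the Pcna-ps2 split as a term it was 1.29, 1.40 and 1.04 (unadjusted p = 0.0114, 0.0098 and 0.0108), with adjusted p of 0.747, 0.739 and 0.747 and 0 of all genes called. These comparisons share libraries with those between melanomas above.

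The melanoma difference itself was then compared between muscles, in 1 model of the groups without rFibcd1. It was smaller in diaphragm than in tibialis anterior for 8 subunits as deposited and for 3 after median-ratio scaling, and larger for 0, against 4.33% of all genes smaller and 0.711% larger. The 8 were Psma7 (difference of log2 differences −0.78, SE 0.22, adjusted p = 0.0356), Psmd2 (−0.78, SE 0.20, adjusted p = 0.0162), Psma4 (−0.65), Psma5 (−0.65), Psma2 (−0.52), Psma3 (−0.51), Psmc6 (−0.51) and Psmb7 (−0.34). Most of them are alpha subunits (5 of 7 in that class). After median-ratio scaling, with 2.01% of all genes smaller, the 3 were Psma4 (−0.39), Psma5 (−0.39) and Psmd2 (−0.52). Leaving out 1 library moved the number from 4 to 16. It was 4 without non-cachectic diaphragm library 66, non-cachectic tibialis anterior library 61, 62, 63 or 65, or cachectic tibialis anterior library 8. It was 5 without cachectic diaphragm library 6 or 34 or non-cachectic diaphragm library 68 or 70, and 16 without cachectic tibialis anterior library 6.

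Between diaphragm and soleus 0 subunits differed in the melanoma effect, against 1.95% of all genes larger and 0.57% smaller in diaphragm. There were 3 at an unadjusted p below 0.05 (Psmb10 −0.71, Psmd5 −0.35 and Psma5 −0.28), a count for which the share of all genes is not given here. After median-ratio scaling 6 were called smaller (2.44% of all genes), Psmd11 (−0.60) by the most. Without cachectic tibialis anterior library 8, which shares its variance estimate with this comparison, 1 was called. Between tibialis anterior and soleus the effect was larger in tibialis anterior for Psmd10 (0.42, adjusted p = 0.0351) and Psmd2 (0.64, adjusted p = 0.0409), against 19.1% of all genes larger and 1.26% smaller. After median-ratio scaling neither was called, and 2 were smaller, Psmd5 (−0.48) and Psmd9 (−0.42), against 7.72% of all genes. As deposited, the number larger or smaller in tibialis anterior ran from 0 to 6 over the fits that left out 1 library. It was 0 without non-cachectic soleus library 64 or 65, cachectic soleus library 6, non-cachectic tibialis anterior library 61, 62 or 63, or cachectic tibialis anterior library 8. It was 1 without non-cachectic soleus library 61 or 63, cachectic soleus library 7 or non-cachectic tibialis anterior library 65. It was 4 without cachectic diaphragm library 22 or cachectic tibialis anterior library 9, 5 without cachectic tibialis anterior library 10 and 6 without cachectic tibialis anterior library 6. With libraries of the same column number treated as paired, the effect was called smaller in diaphragm than in tibialis anterior for 18 subunits, smaller in diaphragm than in soleus for 1, and larger in tibialis anterior than in soleus for 11. The shares of all genes in those directions were 15%, 1.41% and 38.7%, so that the last count lay below the background.

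Levels in non-cachectic mice also differed between muscles, and in the comparisons with tibialis anterior the direction of most constitutive subunits depended on the scale. Between diaphragm and tibialis anterior 9 were higher and 2 lower in diaphragm as deposited, against 64% and 8.52% of all genes, whereas 3 were higher and 31 lower after median-ratio scaling, against 34.6% and 36.4%. The 3 that were higher in diaphragm on both scales were the immunoproteasome genes, with log2 differences as deposited of 1.63 for Psmb8, 1.59 for Psmb10 and 1.496 for Psmb9, and 1.16, 1.05 and 1.11 after scaling. Between diaphragm and soleus 1 was higher (Psmb10, 0.81, adjusted p = 0.00601) and 22 were lower in diaphragm, against 16.8% and 22.1% of all genes, and 3 (the immunoproteasome genes) were higher and 26 lower after median-ratio scaling, against 23.2% and 24%. Dunn's test called 0 higher and 1 lower there (1.73% and 6.99% of all genes), and without the mitochondrially encoded genes 4 were higher and 10 lower (30.8% and 13.9%). Psmd5 (−0.67, adjusted p = 1.57e-07), Psmd4 (−0.66) and Psmb1 (−0.59) were the furthest below soleus. Between tibialis anterior and soleus 0 were higher and 25 lower in tibialis anterior as deposited, against 5.63% and 63.9% of all genes, and 18 were higher and 3 lower (Psmb1, Psmd5 and Psmd10) after median-ratio scaling, against 28.2% and 25.1%. Psmb1 (−0.87, adjusted p = 1.32e-07) and Psmd5 (−0.83, adjusted p = 8.76e-09) had among the largest differences there and kept their direction. Dunn's test called 4 higher and 0 lower between diaphragm and tibialis anterior (44.8% and 6.19% of all genes), and 0 higher and 15 lower between tibialis anterior and soleus (2.86% and 34.1%). With column numbers as pairs, the calls were 11 higher and 4 lower (66.9% and 10.1% of all genes), then 3 and 27 (20.6% and 29.3%), then 0 and 30 (6.44% and 69.7%). The number called ran from 10 to 17 between diaphragm and tibialis anterior (17 without cachectic tibialis anterior library 8) and from 15 to 28 between diaphragm and soleus (15 without non-cachectic soleus library 65).

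Genes that act with the proteasome were looked at as lists, with the number called higher given for mock diaphragm, rFibcd1 diaphragm, tibialis anterior and soleus in that order. None of them was called lower in any of the 4 on the scale as deposited, where 30.9%, 7.14%, 56.4% and 17.5% of all genes were called higher and the medians of all genes were 0.20, 0.08, 0.41 and 0.09. Values of these lists after median-ratio scaling are not given here, so the calls below hold for the scale as deposited alone. Of the assembly chaperones of the core, 1, 1, 3 and 1 of 5 were called higher (median log2 difference 0.15, 0.14, 0.34 and 0.14). Pomp, a chaperone of core maturation, was at 0.15, 0.32, 0.42 and 0.35 (called in all but mock diaphragm), and Psmg1 was at 0.19, 0.14, 0.44 and −0.00 (called in mock diaphragm and tibialis anterior). Of the activators and the inhibitor of the core, 2, 1, 4 and 1 of 6 were called (median log2 difference 0.08, 0.11, 0.47 and 0.23). The interferon-induced activator subunit Psme2 was called in rFibcd1 diaphragm (0.68, adjusted p = 0.0356) and tibialis anterior (0.77), and was 0.06 in mock diaphragm and 0.26 in soleus. Of the proteins associated with the regulatory particle, 3, 2, 6 and 4 of 8 were called (median log2 difference 0.18, 0.16, 0.61 and 0.28). Adrm1, a ubiquitin receptor like Psmd4, was called in all 4 (0.52, 0.34, 0.95 and 0.70).

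Of the shuttle factors and the Vcp complex, which bring ubiquitinated proteins to the proteasome, 6, 2, 7 and 6 of 8 were called (median log2 difference 0.30, 0.21, 0.68 and 0.34). Nploc4, a cofactor of the Vcp unfoldase, was at 0.54, 0.27, 1.16 and 0.54 and was called in all but rFibcd1 diaphragm, and Rad23b, a shuttle factor, was called in all 4 (0.35, 0.28, 0.64 and 0.40). Of the ubiquitin and E1 genes 4, 2, 3 and 3 of 6 were called (median log2 difference 0.497, 0.19, 0.55 and 0.48). The ubiquitin genes Ubb (0.49, 0.44, 1.14 and 0.49) and Rps27a (0.63, 0.60, 1.00 and 0.71) were called in all 4. Of the regulators of proteasome gene expression 6, 1, 6 and 2 of 7 were called (median log2 difference 0.48, 0.11, 0.75 and 0.31). Stat3, a cytokine-activated transcription factor, was called in all 4 (1.07, 0.66, 2.12 and 1.15). Nfe2l1 was called in none (0.10, −0.02, 0.10 and 0.24), and its paralog Nfe2l2 was called in mock diaphragm (0.32) and tibialis anterior (0.67). Of the atrophy ubiquitin ligases 1, 0, 2 and 1 of 2 were called (median log2 difference 0.76, −0.027, 2.16 and 0.33). Trim63 was at 0.96 (adjusted p = 0.0474), 0.19, 2.00 and 0.93 (adjusted p = 0.0493), and Fbxo32 at 0.55, −0.24, 2.32 and −0.27, of which only the tibialis anterior value passed the test. Both ligases had their largest difference in tibialis anterior, where each was called in all 10 fits that left out 1 library. The call of Trim63 held in 14 of 39 such fits in mock diaphragm, where the cachectic libraries ran from 92.8 to 1481 TPM (median 144), and its difference was 0.63 without library 20. In soleus it held in 3 of 10 fits, with cachectic libraries from 147 to 598 TPM (median 175), and the difference was 0.58 without library 7.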

How the data were processed

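RNA from diaphragm, tibialis anterior and soleus was sequenced in 59 libraries. The authors aligned reads to GRCm38 (mm10) with CLC Genomics Workbench and deposited TPM per gene symbol. The kit and instrument in the labels (a stranded mRNA kit, HiSeq) differ from those of the study's methods (another kit, NovaSeq), which was not resolved. TPM keeps no depth, so no counting error is given. Groups come from the labels, and whether libraries of a group are separate mice rests on the labels' replicate names.

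log2(TPM + 1) values were tested with limma 3.58.1 (R 4.3.3, moderated with a mean trend), adjusted over all genes tested, which was checked on simulated data. Genes at 1 TPM or more in as many libraries as the smallest group were kept: 13426 in the 39 diaphragm libraries, 11105 in tibialis anterior, 11957 in soleus and 13501 in the 39 libraries without rFibcd1. Values over libraries were made with Python 3.11.15, numpy 2.4.6, pandas 2.3.3 and scipy 1.17.1. The alternatives were Dunn's test, median-ratio scaling, removal of mitochondrially encoded genes, other pseudocounts (0.1) and filters (mean TPM of 5, none), 2 groups alone, the Pcna-ps2 split, leaving out each library, and a replicate block.

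Column numbers name libraries here and are not the labels' replicate numbers. Deviations of same-numbered columns correlated between diaphragm and tibialis anterior (r from 0.132 to 0.520, 10 of 10 above 0.1) and between tibialis anterior and soleus (0.184 to 0.539, 10 of 10), and between diaphragm and soleus for 8 of 10 (0.0104 to 0.527). No pair of libraries within a group was a duplicate (highest correlation 0.992). The members and lists were chosen with earlier results of these data known. Named were the immunoproteasome genes, Psmb5, Psmb6, Psmb7, Psmd4, Psmd11, Psmd14, Psma8, Psmb11, the highest and lowest of each class in each melanoma comparison, and any called where 5 or fewer were. Other subunits were named after their values were seen. For the other lists, the highest and lowest members and others of known function were named. Paaf1 and Itgam were listed but not analysed here. The values of 1 further listed gene are not reported here. Exon positions are from GENCODE vM21 and promoters from RefSeq GRCm38.p6. Exons of 11 members overlap another gene, with 20% or more of their length in 1 (Psmd9). The subunit pseudogenes Psmb5-ps, Psmb6-ps, Psmb6-ps2 and Psmb7-ps2 were listed at 0 throughout.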

Additional observations from a re-analysis of the deposited data

Results flagged for a closer look

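In the groups of 5, 9 or 10 libraries, a library far from the others of its group (Dixon's test at the 95% level) was found for 37 of 192 pairs of a named subunit and a group. Chance gives about 1 in 20 for a single pair, but the pairs share libraries and are not independent. The count was therefore not tested against chance.

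In cachectic tibialis anterior, the highest library was set apart for 15 subunits: Psma7 (218 TPM), Psmb1 (367), Psmb2 (199.8), Psmb3 (157), Psmb6 (194), Psmc1 (311), Psmc3 (315), Psmc4 (179), Psmc5 (328), Psmd10 (15.8), Psmd11 (109), Psmd14 (76.9), Psmd2 (509), Psmd4 (334) and Psmd8 (336). This is the library numbered 8 for each of them. In cachectic rFibcd1 diaphragm the highest library was set apart for Psmb10 (270 TPM), Psmb8 (142), Psmb9 (72.1), Psmb3 (142), Psmb5 (185), Psmb6 (182), Psmb7 (128), Psmc5 (257) and Psmd2 (252.1). For the immunoproteasome genes it is the library numbered 1.

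In the other groups the library set apart was the highest for Psmb10 (89.0 TPM), Psmc1 (129.7) and Psmd10 (16.5) in non-cachectic rFibcd1 diaphragm, and for Psmb3 (71.3), Psmb5 (123), Psmb7 (91.5) and Psmc3 (132) in non-cachectic mock diaphragm, where Psmd10 had a low library (8.69). In non-cachectic tibialis anterior it was the highest for Psmb9 (4.01) and Psmd14 (37.2). In non-cachectic soleus it was the highest for Psmb10 (29.7) and Psmb9 (7.31) and the lowest for Psmb2 (93.3).

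The melanoma difference was called different between muscles in 10 cases. It was smaller in diaphragm than in tibialis anterior for Psma2 (−0.52), Psma3 (−0.51), Psma4 (−0.65), Psma5 (−0.65), Psma7 (−0.78), Psmb7 (−0.34), Psmc6 (−0.51) and Psmd2 (−0.78), and larger in tibialis anterior than in soleus for Psmd10 (0.42) and Psmd2 (0.64), as limma differences of log2 fold changes on the scale as deposited. Of all genes, 4.33% were smaller in diaphragm than in tibialis anterior and 19.1% larger in tibialis anterior than in soleus, so that 2 of 37 lay below the background in the latter. After median-ratio scaling, Psma4, Psma5 and Psmd2 were called between diaphragm and tibialis anterior, and neither Psmd10 nor Psmd2 between tibialis anterior and soleus.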

How the results depend on the processing

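Sequencing depth is unknown, each melanoma is 1 xenograft, and kit and instrument are unresolved. Of 910 fold changes recomputed, 709 kept their direction and side of the threshold, 142 lost and 22 gained a call, and 37 reversed. Of 161 counts of calls, 122 stayed within 1.5 times of the reported count. Of 42 ratios, 3 reversed. The cause of each change was not tested.

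Dunn's test called 0 in rFibcd1 diaphragm, and 4, 1 and 15 for levels between diaphragm and tibialis anterior, diaphragm and soleus, and tibialis anterior and soleus. High Pcna-ps2 libraries alone gave 1 and 0 calls in mock and rFibcd1 diaphragm, 4 for rFibcd1 against mock with the cachectic melanoma, −0.022 for Psmd10 and −0.0098 for the log2 ratio of Psmb8 to Psmb5 in mock diaphragm. With the split as a term, mock diaphragm had 13 calls, with Psmb8 at −0.56, Psmd10 at −0.045 and Psmd5 at −0.0091.

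Median-ratio scaling gave 0 higher and 1 lower in mock diaphragm, 4 in rFibcd1 diaphragm, 14 higher and 1 lower in tibialis anterior, 3 and 6 differences in the melanoma effect of diaphragm against tibialis anterior and soleus, and 34 in levels of diaphragm against tibialis anterior. Log2 differences of named subunits that reversed were Psmb2 −0.11, Psmb5 −0.021, Psmb7 −0.073, Psmc6 −0.055, Psmd10 −0.14, Psmd5 −0.13 and Psmd9 −0.12 in mock diaphragm, Psmd9 −0.036 in rFibcd1 diaphragm, Psma1 −0.16, Psmb2 −0.052, Psmb5 −0.021, Psmb6 −0.018, Psmb7 −0.0078, Psmd5 −0.14 and Psmd9 −0.34 in tibialis anterior, and Psmd10 −0.034 in soleus. Without mitochondrially encoded genes there were 3 higher and 1 lower in mock diaphragm, 9 in rFibcd1 diaphragm and 20 in soleus, 24, 1 and 9 differences in the melanoma effect (smaller in diaphragm than in tibialis anterior, smaller in diaphragm than in soleus, larger in tibialis anterior than in soleus, against 17.1%, 0.964% and 33.6% of all genes), and 14 in levels of each of diaphragm and tibialis anterior against soleus. The named subunits that reversed were Psmb2 −0.12, Psmb5 −0.028, Psmb7 −0.080, Psmc6 −0.061, Psmd10 −0.15, Psmd5 −0.14 and Psmd9 −0.13 in mock diaphragm, Psmd5 −0.0091 and Psmd9 −0.11 in rFibcd1 diaphragm, Psmd9 −0.13 in tibialis anterior, and Psma1 −0.055, Psmb2 −0.087, Psmd10 −0.17 and Psmd9 −0.070 in soleus.

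Without a filter the melanoma effect differed for 5 (diaphragm, tibialis anterior) and 1 (tibialis anterior, soleus). With only the 2 groups compared, rFibcd1 diaphragm had 12 calls and levels of diaphragm against tibialis anterior 23. The shares of all genes called in these settings are not given here, so the counts are not set against a background. With the replicate block by column number, chosen after seeing the data (correlation 0.381), the melanoma effect differed for 18, 1 and 11 subunits. Comparisons within a muscle are of different mice, so no paired analysis was possible because no library of one group shares a mouse with the other.

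Leaving out 1 library gave 22 to 29 calls in mock diaphragm, 21 to 30 in rFibcd1 diaphragm, 31 to 35 in tibialis anterior and 28 to 30 in soleus. The melanoma effect differed for 4 to 16 (diaphragm, tibialis anterior), 0 to 1 (diaphragm, soleus) and 0 to 6 (tibialis anterior, soleus), and levels for 10 to 17 (diaphragm, tibialis anterior) and 15 to 28 (diaphragm, soleus). In mock diaphragm Psma1 ran from −0.038 to 0.018, Psmb10 from −0.11 to 0.11, Psmb9 from −0.24 to 0.052 and the ratio of Psmb8 to Psmb5 from −0.11 to 0.18. The ratio of Psmb9 to Psmb6 in soleus ran from −0.055 to 0.45. Psmb10 to Psmb7 ran from 0.074 to 0.40 in tibialis anterior, 0.27 to 0.58 in soleus and 0.30 to 0.68 in rFibcd1 diaphragm. Psmb8 to Psmb5 ran from 0.15 to 0.67 in soleus, and Psmb9 to Psmb6 from 0.12 to 0.67 in tibialis anterior. No ratio was called in any of these fits.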
